A study of Mus musculus with 30 samples.

Results

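The transcripts described here come from 8 genes of the Bcl2 family, chosen by name: Bcl2, Bcl2l1, Mcl1, Bcl2l11, Bax, Bak1, Bid and Pmaip1. On the array, 14 probes carried 1 of these names, out of 33453 probes for 21689 genes. Proteins of this family decide whether the outer membrane of the mitochondrion is opened, which releases cytochrome c and starts the caspase cascade. Bcl2, Bcl2l1 (Bcl-xL) and Mcl1 hold the membrane closed, Bax and Bak1 form the pores, and the BH3-only proteins Bid, Bcl2l11 (Bim) and Pmaip1 (Noxa) bind the guardians or the pore formers and tip the balance. Several of them are known to be set by stress at the level of transcription, Pmaip1 among them, and Mcl1 is known for a very short-lived protein and messenger.

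The study asked how much of the transcriptional stress response needs the kinase p38α. To this end, mRNA from immortalized mouse embryonic fibroblasts (MEFs) was hybridised to 30 two-colour arrays, 2 for each of 15 groups. Wild type (WT) MEFs were given anisomycin at 25 ng/ml (an inhibitor of translation that activates stress kinases) for 45 min, TNFα at 100 ng/ml (an inflammatory cytokine) for 45 min, or NaCl at 100 mM (osmostress) for 45 min, 2 h or 8 h. The same 5 treatments were repeated with SB203580, an inhibitor of p38α and p38β, which was also given alone, and p38α-/- MEFs were left untreated or given anisomycin for 45 min, TNFα for 45 min or NaCl for 2 h. The sample titles give SB203580 as 10 mM for 2 h, whereas the treatment protocol gives a micromolar dose started 30 min before the stress, so the exposure of the cells to the inhibitor is not settled by the sources. All cells were growing exponentially in the same medium with serum. Each line is an immortalized line, and the sources used here do not say how many clones or embryos it came from.

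Every array carried the treated cells in Cy5 and the same reference in Cy3, a pool of 2 untreated WT cultures, with no dye swap. The measure below is the log2 of that ratio, 0 being the level of the pool and 1 a doubling. No untreated WT culture was hybridised as a sample of its own, so a ratio tested against 0 leaves out the spread of the control, and a dye bias of a probe stays in it. Both cancel when 2 groups are compared with each other. A gene is the mean of its probes after spots that the scanner software marked as outliers were left out, "called" means a Benjamini-Hochberg adjusted p below 0.05 over all genes in limma's moderated test, and values are given as mean ± SD with n = 2 arrays unless stated. The p-values measure the spread between these arrays, described by the study as independent experiments. In bulk RNA, fewer cells that carry a transcript and less of it per cell cannot be told apart.

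Between 6.78 and 44.8% of spots per array were marked as outliers, and between 81.1 and 96.8% were well above background in Cy5. The Mapk14 transcript, which encodes p38α, was above the pool on all 16 WT arrays that measured it (0.05 to 1.31) and below it on all 6 such p38α-/- arrays (−2.24 to −0.94). All 11 fibroblast markers were well above background on all 30 arrays, and so were 4 of 4 epithelial, 2 of 3 endothelial and 4 of 4 haematopoietic markers. Their part in the results was not tested. The scan dates split the arrays into 4 sets: all first WT arrays, all second WT arrays with all first p38α-/- arrays, and 2 sets of second p38α-/- arrays.

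The 250 bases before the start site were read for 7 of the 8 genes (10 start sites) from RefSeq in build GRCm38.p6, Pmaip1 being the gene not among them. They were searched on both strands for TGACGTCA and its core TGACG (the sites of CREB and ATF factors), TGANTCA (the AP-1 site) and GGGCGG (the GC box of Sp factors), the letters of the first pair overlapping. TGACGTCA was at 0 of the 10 start sites (1.55% of 32851 start sites of all genes), TGACG at 1 of 10, that of Bcl2 (17.8% of all), TGANTCA at 0 (6.75%), and GGGCGG at 6 of 10, in front of Bcl2, Mcl1, Bcl2l11, Bax and Bid (32.7% of all). The windows of Mcl1 and Bid, which were called above the pool in 5 and 4 groups, are printed with GC boxes in capitals, CCGCCC being the box on the other strand. The Mcl1 window is chr3:95658471-95658720 on the plus strand and the Bid window chr6:120916825-120917074 on the minus strand, each written 5′ to 3′ in the direction of the gene.
Mcl1: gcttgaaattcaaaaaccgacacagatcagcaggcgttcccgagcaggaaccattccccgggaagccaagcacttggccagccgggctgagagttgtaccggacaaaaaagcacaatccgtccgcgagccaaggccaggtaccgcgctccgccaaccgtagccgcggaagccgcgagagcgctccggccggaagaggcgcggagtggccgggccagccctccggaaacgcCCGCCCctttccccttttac
Bid: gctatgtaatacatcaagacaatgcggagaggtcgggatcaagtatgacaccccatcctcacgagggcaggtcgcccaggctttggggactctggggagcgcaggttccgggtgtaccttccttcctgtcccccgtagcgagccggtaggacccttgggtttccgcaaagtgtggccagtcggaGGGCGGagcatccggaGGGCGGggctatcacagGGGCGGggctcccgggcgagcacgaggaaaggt
A single box lay 20 bases before the Mcl1 start, and 3 boxes lay 66, 50 and 33 bases before that of Bid. Both starts lie within the gene positions given below, so the Mcl1 window falls inside the annotated gene and most of the Bid window does. Such a match is a description of the letters and not a bound site.

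Of 120 pairs of a gene and a group, 104 had both arrays measured, and 34 of these were called against the pool, 16 up and 18 down. That is 32.7% of the pairs, against 14.7% over all genes. The calls up were those of Pmaip1 (6 groups), Mcl1 (5), Bid (4) and Bcl2 (1), and the calls down those of Bak1 (8), Bcl2l1 (6), Bax (3) and Bcl2 (1), while Bcl2l11 was called in none of its 15. Between groups, where the pool cancels, 2 of 19 tests were called for p38α-/- against WT cells (10.5%, against 0.8% over all genes), 0 of 33 for the inhibitor against stress alone (0.0465% over all genes) and 4 of 52 for stress within an arm (7.69% against 1.47%). Between NaCl times 2 of 14 were called (14.3% against 4.29%) and between stresses 0 of 18 (0.233% over all genes). Hence most of the genes fell into a set called above the pool in some groups (Pmaip1, Mcl1 and Bid) and a set that lay below it almost everywhere (Bak1, Bax, Bcl2l1).

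**Figure D1:**
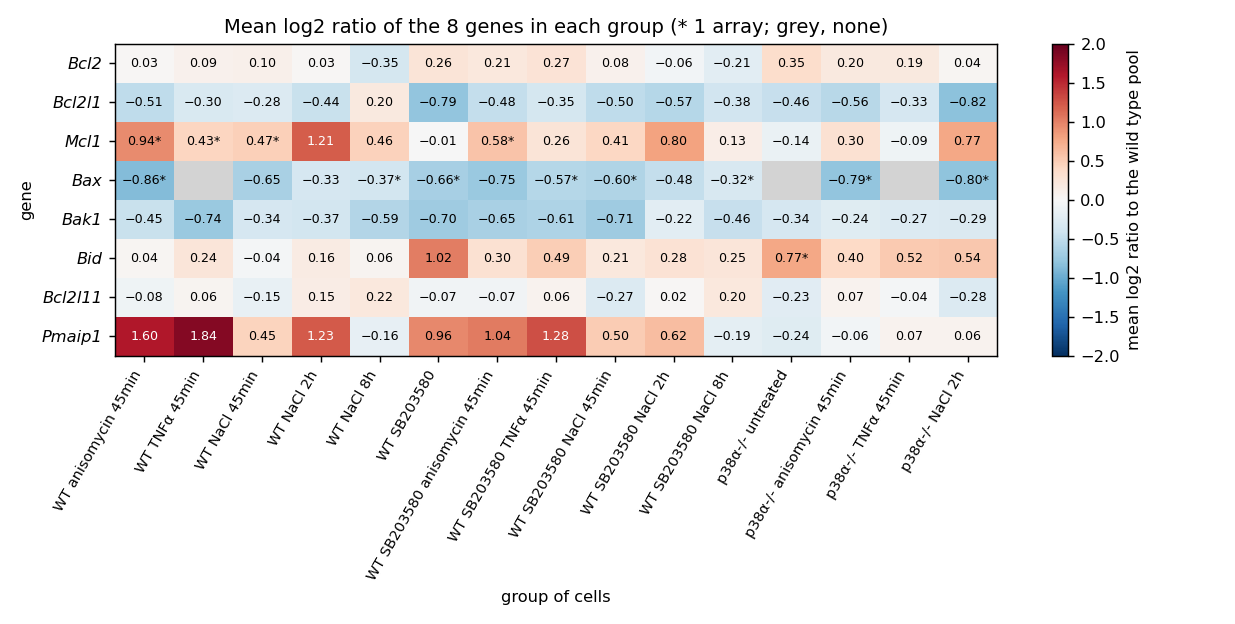
Mean log2 ratio to the WT pool of each of the 8 genes (rows) in each of the 15 groups (columns), red above and blue below the pool, with the value written in the cell, a star for a mean from 1 array and grey where both spots were marked as outliers. Pmaip1 reaches 1.84 in WT cells with TNFα and lies between −0.24 and 0.07 in the 4 groups of p38α-/- cells, whereas Bak1 and Bax are below 0 in every group measured.

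Pmaip1 lies on chromosome 18 (66458604 to 66465558, GRCm38.p6) and was read by 1 probe, with no outlier spot on any of the 30 arrays. Its product, Noxa, binds Mcl1 and is known for marking it for degradation. In WT cells the transcript read 1.70 and 1.50 with anisomycin, 1.86 and 1.82 with TNFα, and 1.27 and 1.18 after 2 h of NaCl. All 6 of these arrays were thus more than 2-fold above the pool. The means were 1.60 ± 0.14 with anisomycin (3.03-fold, adjusted p = 0.000555), 1.84 ± 0.03 with TNFα (3.58-fold, adjusted p = 0.000189) and 1.23 ± 0.06 after 2 h of NaCl (2.34-fold, adjusted p = 0.00415). At 45 min of NaCl the arrays read 0.37 and 0.53, which was not called (adjusted p = 0.258), and at 8 h they read −0.68 and 0.36, on either side of the pool (adjusted p = 0.72). The percentages of all genes called in these groups were 12.0 with anisomycin, 11.0 with TNFα, and 9.88, 9.92 and 22.2 after 45 min, 2 h and 8 h of NaCl.

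With NaCl the Pmaip1 transcript was thus transient. From 2 h to 8 h it fell by 1.39 on the log2 scale (95% interval −2.12 to −0.65, adjusted p = 0.0186, with 7.81% of all genes called), by 1.95 between the first arrays and by 0.82 between the second. The rise from 45 min to 2 h was 0.78 and was not called (adjusted p = 0.795, with 0.054% of all genes called). At 45 min, NaCl gave less Pmaip1 than the other 2 stresses by 1.15 against anisomycin (adjusted p = 0.361) and 1.39 against TNFα (adjusted p = 0.174), neither being called. Over all genes, 0.183% were called between anisomycin and TNFα, 0.289% between anisomycin and NaCl and 0.235% between TNFα and NaCl. The fall from 2 h to 8 h lost its call without the first array at 8 h (−0.87, adjusted p = 0.269) and without either array at 2 h (adjusted p = 0.111 and 0.0715).

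In p38α-/- cells Pmaip1 stayed near the pool. The 8 arrays ran from −0.40 to 0.51 with a median of −0.05, 3 above and 5 below 0, and no group was called. The 4 p38α-/- arrays with anisomycin or TNFα, −0.38, 0.27, −0.37 and 0.51, did not overlap the 4 WT arrays, which began at 1.50. The difference from WT cells was −1.66 with anisomycin (95% interval −2.39 to −0.92, adjusted p = 0.022) and −1.77 with TNFα (−2.51 to −1.04, adjusted p = 0.0276), both called. Of all genes, 1.27% were called between the genotypes with anisomycin, 0.414% with TNFα and 0.697% after 2 h of NaCl. After 2 h of NaCl the p38α-/- arrays read −0.02 and 0.14, again below both WT arrays, with a difference of −1.16 (−1.90 to −0.43) that was not called (adjusted p = 0.167).

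The genotypes were scanned together on 1 date, and on it p38α-/- cells were lower by 1.89 with anisomycin, 2.19 with TNFα and 1.20 after 2 h of NaCl, with 1 array on each side. With scan date in the fit, the differences were −1.85 (adjusted p = 0.00785) with anisomycin and −2.32 (adjusted p = 0.00403) with TNFα. With only 2 arrays a group, each call rested on single arrays. With anisomycin it was lost without any 1 of the 4 arrays (differences −1.98 to −1.33, adjusted p = 0.051 to 0.224), and with TNFα without either WT array (adjusted p = 0.185 and 0.208) or the first p38α-/- array (−1.33, adjusted p = 0.487), but not without the second (−2.21).

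**Figure D2:**
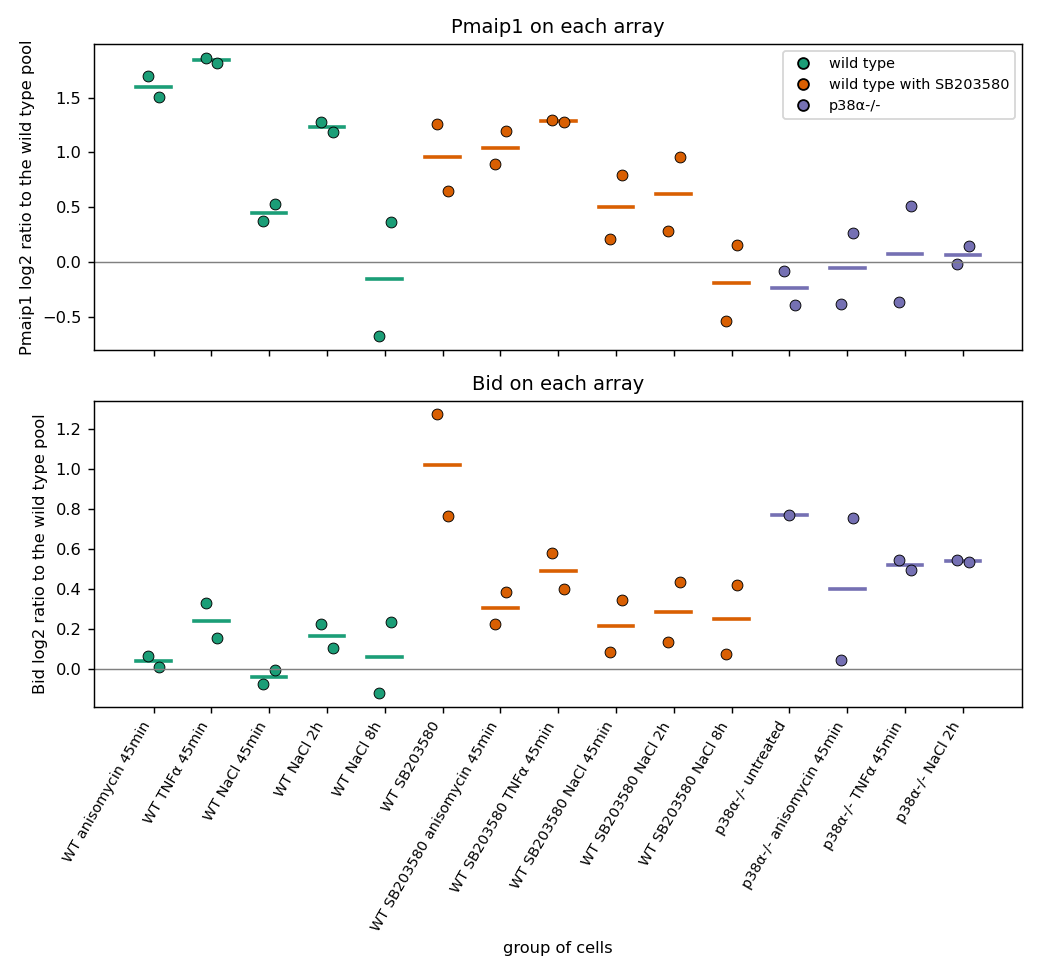
Log2 ratio to the WT pool of Pmaip1 (top) and Bid (bottom) on each array, one point per array and a bar at the group mean, in WT cells (green), WT cells with SB203580 (orange) and p38α-/- cells (purple). The Pmaip1 points of WT cells with anisomycin or TNFα start at 1.50, above all 8 p38α-/- points (−0.40 to 0.51), and the 2 Bid points of SB203580 alone, 1.27 and 0.77, are apart from the WT stress points (−0.12 to 0.33).

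With SB203580 and no stress, Pmaip1 was above the pool. The inhibitor alone gave 1.26 and 0.65 (0.96 ± 0.43, 1.94-fold, adjusted p = 0.00914, with 26.6% of all genes called), and the call was lost without the first of these arrays (0.65, adjusted p = 0.341). With anisomycin the inhibitor arrays read 0.89 and 1.20 (adjusted p = 0.0114, with 11.7% of all genes called) and with TNFα 1.27 and 1.29 (adjusted p = 0.00443, with 9.52%). All 4 lay below the WT arrays without inhibitor, yet the differences, −0.56 in both stresses (95% intervals −1.29 to 0.18), were not called. With NaCl the differences were 0.05 at 45 min, −0.61 at 2 h (−1.34 to 0.13) and −0.03 at 8 h.

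Among all genes the comparison of inhibitor with stress against stress alone gave very few calls: 0.0204% with anisomycin, 0.0% with TNFα, 0.0% and 0.0% after 45 min and 2 h of NaCl and 0.206% after 8 h. None of the 8 genes was called there, by limma, in any of 33 tests, and 2 had an unadjusted p below 0.05. The lower ends of the 5 intervals for Pmaip1 ran from −1.34 to −0.68. With 2 arrays a group, the missing calls therefore do not exclude a difference inside these intervals. The comparisons with the inhibitor and with p38α-/- cells share the WT stress arrays and are therefore given side by side only.

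**Figure D3:**
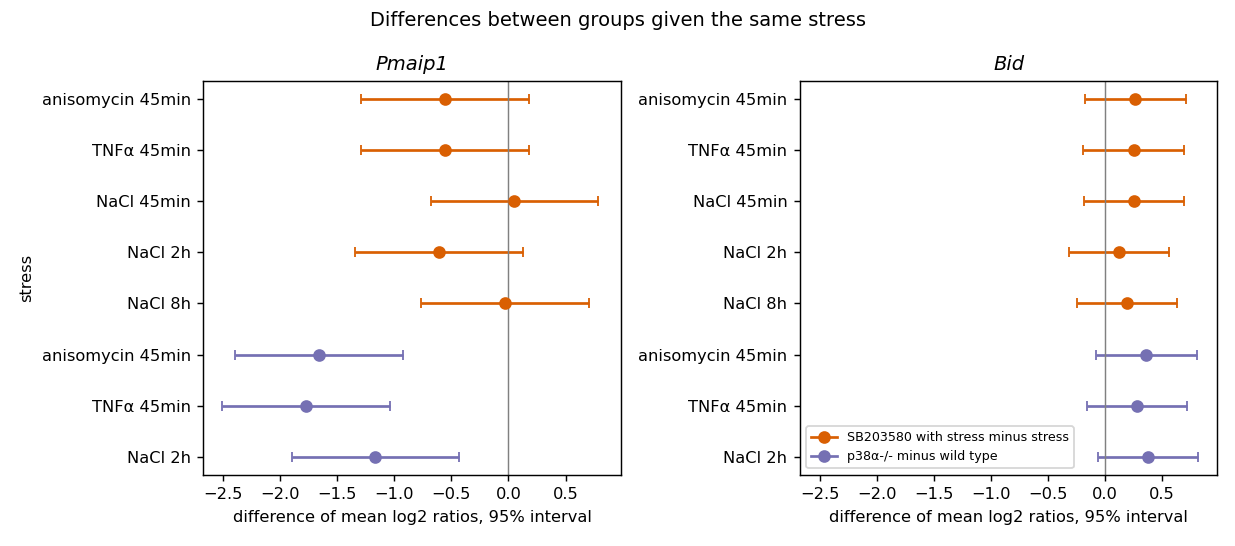
Differences of mean log2 ratio between groups given the same stress, for Pmaip1 (left) and Bid (right), with 95% intervals, for SB203580 with stress minus stress alone (orange) and p38α-/- minus WT cells (purple). For Pmaip1 the 3 purple intervals lie below 0, ending at −0.92, −1.04 and −0.43, and the 5 orange ones cross 0.

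Within an arm, stress did not raise Pmaip1 by a called amount. The inhibitor alone was a single group of separate cultures, labelled 2 h, set against stresses of 45 min, 2 h and 8 h. Stress and time with the inhibitor therefore cannot be told apart in these comparisons, for Pmaip1 or for the other genes. Against untreated p38α-/- cells (−0.40 and −0.08) the change was 0.18 with anisomycin, 0.31 with TNFα and 0.30 after 2 h of NaCl. Against the inhibitor alone it was 0.09 with anisomycin, 0.33 with TNFα, −0.46 and −0.33 after 45 min and 2 h of NaCl and −1.15 after 8 h (adjusted p = 0.0511, and 0.0257 with the replicate number as a block within each genotype). The percentages of all genes called against the inhibitor alone were 0.014 with anisomycin, 0.0983 with TNFα, and 0.0435, 2.87 and 7.78 after 45 min, 2 h and 8 h of NaCl. Against untreated p38α-/- cells they were 0.0847, 0.078 and 1.08 with anisomycin, TNFα and 2 h of NaCl.

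The rise of Pmaip1 over its own unstressed arm, set against the rise of WT cells over the pool, was smaller in all 8 pairs, by 0.90 to 1.56 with the inhibitor and by 1.42, 1.53 and 0.92 in p38α-/- cells with anisomycin, TNFα and NaCl. None of these was called (adjusted p = 0.0684 to 0.376). The pairs with the inhibitor share the 2 arrays of the inhibitor alone (1.26 and 0.65), and those of p38α-/- cells share the untreated arrays. Their common direction is therefore not independent. After 45 min and 8 h of NaCl the means with and without the inhibitor were close (0.50 and 0.45, −0.19 and −0.16). The level of the inhibitor alone (mean 0.96) is subtracted in every pair with the inhibitor. At these times the smaller rise is close to that level in size, and with the other stresses that level is also part of it. Without this subtraction, cells with and without the inhibitor differed by −0.56 with anisomycin and TNFα and by −0.61 after 2 h of NaCl. With the block within each genotype, the differences with the inhibitor were called for anisomycin (−1.51, adjusted p = 0.0418), TNFα (−1.51, adjusted p = 0.0435) and 2 h of NaCl (−1.56, adjusted p = 0.0309), and in the last so were Bid (−0.90, adjusted p = 0.0466) and Bak1 (0.86, adjusted p = 0.0475). Unlike the other comparisons between groups, this one keeps the dye bias and the level of the pool, since WT cells had no unstressed array. Over all genes it called, without the block, 0.583%, 0.651%, 0.0936%, 1.65% and 0.295% with the inhibitor (anisomycin, TNFα, and NaCl for 45 min, 2 h and 8 h) and 0.542%, 0.45% and 0.0% in p38α-/- cells (anisomycin, TNFα and NaCl). The shares over all genes with the block are not given here, so its added calls cannot be set against them. Of the 8 genes, 0 of 48 tests were called by limma, 21 having an unadjusted p below 0.05 (15.5% of such tests over all genes).

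Over the 15 groups, the order of Pmaip1 began with WT cells with TNFα and anisomycin, whose arrays overlapped neither each other nor the next group. From the third group, the inhibitor with TNFα (1.28), down to untreated p38α-/- cells (−0.24), the arrays of all neighbours overlapped. The genes whose ratios ran most like Pmaip1 over the 30 arrays, among 1227 genes with a comparable spread, were MGC38735 (Pearson's r = 0.842), Rdh10 (0.827) and Igf2bp3 (0.814), the median over all being 0.0609. The arrays share the reference and the scan dates, so the likeness is a description.

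Mcl1 (chromosome 3, 95656944 to 95663179) also rose with NaCl. It was read by 2 probes, A_51_P238786 and A_52_P93933, with 8 and 7 outlier spots. After 2 h of NaCl the gene read 1.39 and 1.02 in WT cells, 0.80 and 0.80 with the inhibitor, and 0.72 and 0.83 in p38α-/- cells. All 6 arrays were above the pool, and all 3 groups were called: 1.21 ± 0.26 (2.31-fold, adjusted p = 6.64e-05), 0.80 ± 0.003 (1.74-fold, adjusted p = 0.00127) and 0.77 ± 0.08 (1.71-fold, adjusted p = 0.00121). The percentages of all genes called were 17.1 with the inhibitor and 18.0 in p38α-/- cells at this time.

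The rise of Mcl1 was also called against the unstressed cells of the same arm. It was 0.81 against the inhibitor alone (95% interval 0.41 to 1.20, adjusted p = 0.0298) and 0.91 against untreated p38α-/- cells (0.51 to 1.31, adjusted p = 0.0306). By scan date it was 0.53 and 1.09 with the inhibitor, and 0.81 and 1.01 in p38α-/- cells. WT cells were above both arms, by 0.41 over the inhibitor (0.01 to 0.81) and by 0.43 over p38α-/- cells (0.04 to 0.83), but neither difference was called (adjusted p = 1.0 and 0.387). Each of the 2 rises lost its call without some single array: that with the inhibitor without the second array of the inhibitor alone (0.53, adjusted p = 0.13) or either stressed array (adjusted p = 0.16 and 0.151), and that in p38α-/- cells without any of its 4 arrays (adjusted p = 0.0741 to 0.19).

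By 8 h of NaCl Mcl1 had fallen again in WT cells, to 0.37 and 0.55 (0.46 ± 0.13, adjusted p = 0.0199). The fall from 2 h was 0.74 (95% interval −1.14 to −0.35, adjusted p = 0.0234), by 1.02 and 0.47 on the 2 scan dates, and its call was lost without the first array at 2 h (−0.56, adjusted p = 0.213) or either array at 8 h (adjusted p = 0.151 and 0.0584). With the inhibitor at 8 h the arrays read −0.04 and 0.30, each from 1 of the 2 probes, which was not called (adjusted p = 0.533). With the outlier spots kept they read 0.10 and 0.62 (mean 0.36), which was called (adjusted p = 0.0392). At 45 min the inhibitor arrays read 0.33 and 0.48 (adjusted p = 0.0466). The call at 45 min was lost with scan date in the fit (0.38, adjusted p = 0.0609) and with the outlier spots kept (0.33, adjusted p = 0.0583). The percentages of all genes called in these inhibitor groups were 21.2 at 8 h and 16.8 at 45 min.

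At 45 min the Mcl1 spots of the second WT arrays were all marked as outliers, so anisomycin, TNFα and NaCl had 1 measured array each, at 0.94, 0.43 and 0.47, and no test. With the outlier spots kept, anisomycin gave 0.94 and 0.79 (mean 0.86, adjusted p = 0.000107), TNFα 0.43 and 0.30 (0.36, adjusted p = 0.0453) and NaCl 0.47 and 0.30 (0.39, adjusted p = 0.0395), all called, as were 24.2% of all tests against the pool. So all 10 WT stress arrays were above the pool for Mcl1 with those spots kept. In p38α-/- cells with anisomycin the arrays read 0.29 and 0.31, below both WT arrays, and the difference with the spots kept, −0.56 (95% interval −0.94 to −0.19), was not called (adjusted p = 0.141).

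**Figure D4:**
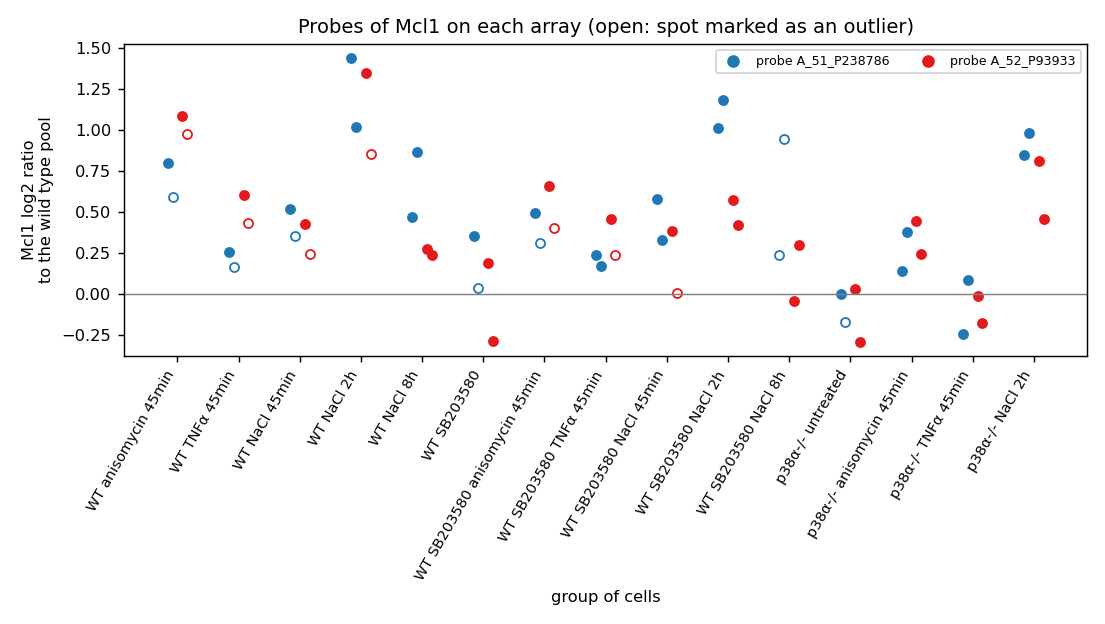
Log2 ratio to the WT pool of the 2 Mcl1 probes (blue and red) on each array of the 15 groups, open points being spots marked as outliers. Both probes have their highest mean in WT cells after 2 h of NaCl (1.44 and 1.02, 1.35 and 0.85), and they part with the inhibitor at that time (1.02 and 1.18 against 0.58 and 0.42).

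The 2 Mcl1 probes gave the same direction after 2 h of NaCl but not the same size. In WT cells A_51_P238786 read 1.44 and 1.02, and A_52_P93933 1.35 and 0.85, the last marked as an outlier. With the inhibitor the first probe read 1.02 and 1.18 (adjusted p = 0.000419), near the WT level, and the second 0.58 and 0.42 (adjusted p = 0.030). Thus the gap between WT and inhibitor cells lay mostly in 1 probe. After 8 h A_51_P238786 was called in WT cells (0.67, adjusted p = 0.0049), whereas A_52_P93933 read 0.27 and 0.24. Over all single probes, 16.4% of tests against the pool were called.

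Over its 11 groups with both arrays, Mcl1 was ordered with the 3 groups of 2 h of NaCl first, WT cells apart from the arms and the arms overlapping, and with untreated p38α-/- cells (−0.14) last. The genes most like Mcl1 over 26 arrays, among 1375 genes, were Ier5 (r = 0.876), Tiparp (0.863) and Id2 (0.839), the median over all being 0.103.

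Bid (chromosome 6, 120893119 to 120917062), the BH3-only protein that caspase 8 cleaves, was called with the inhibitor and in p38α-/- cells, and in no group of WT cells given stress alone. SB203580 alone gave 1.27 and 0.77 (1.02 ± 0.36, 2.03-fold, adjusted p = 0.000255), which overlapped none of the other 13 groups with both arrays. The lower of these arrays was level with untreated p38α-/- cells, whose 1 measured array read 0.77. Without the first array of the inhibitor alone the call was lost (0.77). All 12 arrays with the inhibitor were above the pool (0.07 to 1.27), as were 7 of the 10 WT stress arrays (−0.12 to 0.33). With the inhibitor and stress, Bid was lower than with the inhibitor alone by 0.53 to 0.81, and this was called after 8 h of NaCl (−0.77, 95% interval −1.21 to −0.33, adjusted p = 0.0285). On the first scan date this drop was 1.20 and on the second 0.35, and the call was lost without the first array of either group (−0.52 and −0.60, adjusted p = 0.36 and 0.266). After 2 h of NaCl it was −0.74 (adjusted p = 0.0689, and 0.0484 with the block within each genotype).

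Between the inhibitor with stress and stress alone, Bid differed by 0.12 to 0.27, never called. With TNFα and the inhibitor it read 0.58 and 0.40 (adjusted p = 0.0457, lost without 18 of the 30 arrays in turn, with an adjusted p of at most 0.448).

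In p38α-/- cells Bid was above the pool on all 8 arrays with the outlier spot kept (0.04 to 0.77). TNFα gave 0.54 and 0.50 (adjusted p = 0.039, with 7.61% of all genes called) and 2 h of NaCl gave 0.53 and 0.55 (adjusted p = 0.0175). With scan date in the fit neither was called (0.56, adjusted p = 0.0985, and 0.38, adjusted p = 0.127), nor without either array of its own group (adjusted p = 0.178 and 0.424 for TNFα, 0.131 and 0.154 for NaCl). With anisomycin the arrays read 0.04 and 0.75 and were not called. Untreated p38α-/- cells gave 0.77 on 1 array, and 0.72 on 2 with the outlier spot kept (adjusted p = 0.00122). Against WT cells under the same stress the differences were 0.36, 0.28 and 0.38 with anisomycin, TNFα and NaCl, all with intervals that crossed 0.

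Across the 14 groups with both arrays, Bid was highest with the inhibitor alone and lowest in WT cells after 45 min of NaCl (−0.04). Apart from these ends all neighbours in the order overlapped. Its ratios ran most like those of Sulf2 (r = 0.631), D15Bwg0759e (0.584) and 4930555K19Rik (0.583) over 29 arrays and 1232 genes, lower values than for Pmaip1 or Mcl1, with a median of −0.0687. Of Bcl2l11 (chromosome 2, 128126038 to 128162547), whose product Bim binds all the guardians, 1 probe gave ratios from −0.49 to 0.37, above the pool on 15 arrays and below on 15. It was called in no comparison of any kind. Its largest difference between genotypes was −0.42 after 2 h of NaCl (95% interval −0.80 to −0.05, adjusted p = 0.369), where the WT arrays read 0.04 and 0.25 and the p38α-/- arrays −0.49 and −0.06.

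Bcl2l1 (chromosome 2, 152758732 to 152833803) had 3 probes that did not run together. As a gene it was below the pool in 14 of 15 groups and called in 6: WT cells with anisomycin (−0.51) and with the inhibitor alone (−0.79), the inhibitor with NaCl for 45 min (−0.50) and 2 h (−0.57), and p38α-/- cells with anisomycin (−0.56, with 12.4% of all genes called) and NaCl (−0.82). Probe A_52_P148861, with no outlier spot, rose to 0.51 and 0.69 after 8 h of NaCl in WT cells (0.60, 1.52-fold, adjusted p = 0.00662). It had read −0.22 and −0.84 at 2 h, so the rise from 2 h to 8 h was 1.13 (95% interval 0.69 to 1.57, adjusted p = 0.00221, with 4.38% of probe tests between NaCl times called). With the inhibitor at 8 h it read −0.55 and −0.22, below both WT arrays, which was not called at the probe level (adjusted p = 0.0819).

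In p38α-/- cells A_52_P148861 was below the pool on all 8 arrays (−1.41 to −0.41), most after NaCl (−1.03, adjusted p = 0.000147), and with the inhibitor alone it read −0.68 (adjusted p = 0.00274). The other 2 probes were below the pool nearly everywhere: A_51_P299454 on 30 of 30 arrays (18 of them outlier spots) and A_52_P510877 on 28 of 30. For the gene, the rise from 2 h to 8 h was 0.64 and was not called (adjusted p = 0.101, and 0.0139 with the block within each genotype). With that block Bcl2l1 was also called against the pool in 5 more groups, including untreated p38α-/- cells (−0.46, adjusted p = 0.00786, with 15% of all genes called without the block). In the difference of rises it was called with anisomycin (0.82, adjusted p = 0.0334) and TNFα (0.73, adjusted p = 0.0489).

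Bcl2 (chromosome 1, 106538176 to 106714290) moved the other way on 1 of its 3 probes. A_52_P534870, again without outlier spots, read −1.02 and −0.48 after 8 h of NaCl in WT cells (−0.75, adjusted p = 0.00375), after 0.53 and 0.10 at 2 h. The fall from 2 h was 1.06 (95% interval −1.57 to −0.56, adjusted p = 0.00927). So on the same 2 arrays at 8 h this Bcl2 probe lay below the pool and the A_52_P148861 probe of Bcl2l1 above it. The values at 2 h came from other cultures. In p38α-/- cells A_52_P534870 was above the pool on all 8 arrays (0.39 to 1.16), called in the untreated cells (0.83, adjusted p = 0.00328), with anisomycin (0.75, adjusted p = 0.00714) and with NaCl (0.51, adjusted p = 0.0402). The other probes went the other way there. With outlier spots kept, A_51_P380013 and A_52_P438280 were each below the pool on 6 of the 8 arrays (medians −0.18 and −0.16).

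Probe A_52_P534870 had the lowest median Cy5 signal of the Bcl2 probes (672.9, against 2350 and 135700), and each probe names a different transcript record. The Bcl2 gene mean, over all its probes, was smaller in size than this probe where both were called. It was called after 8 h of NaCl (−0.53 and −0.17, mean −0.35, adjusted p = 0.0179), in untreated p38α-/- cells (0.35 ± 0.07, adjusted p = 0.0258) and, with the inhibitor, from the unstressed cells to 8 h of NaCl (−0.47, adjusted p = 0.0487, lost without 23 of the 30 arrays in turn, and −0.24 with adjusted p = 0.416 with the outlier spots kept). A_51_P380013, which was saturated on 9 arrays, read −0.14 and 0.15 after 8 h of NaCl. With the outlier spots kept, the mean in untreated p38α-/- cells was 0.15 and was not called (adjusted p = 0.416). With the inhibitor alone Bcl2 read 0.28 and 0.24 (adjusted p = 0.0609, and 0.0476 with the block within each genotype). With the outlier spots kept these arrays read 0.28 and −0.23, with a mean of 0.03 (adjusted p = 0.886).

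**Figure D5:**
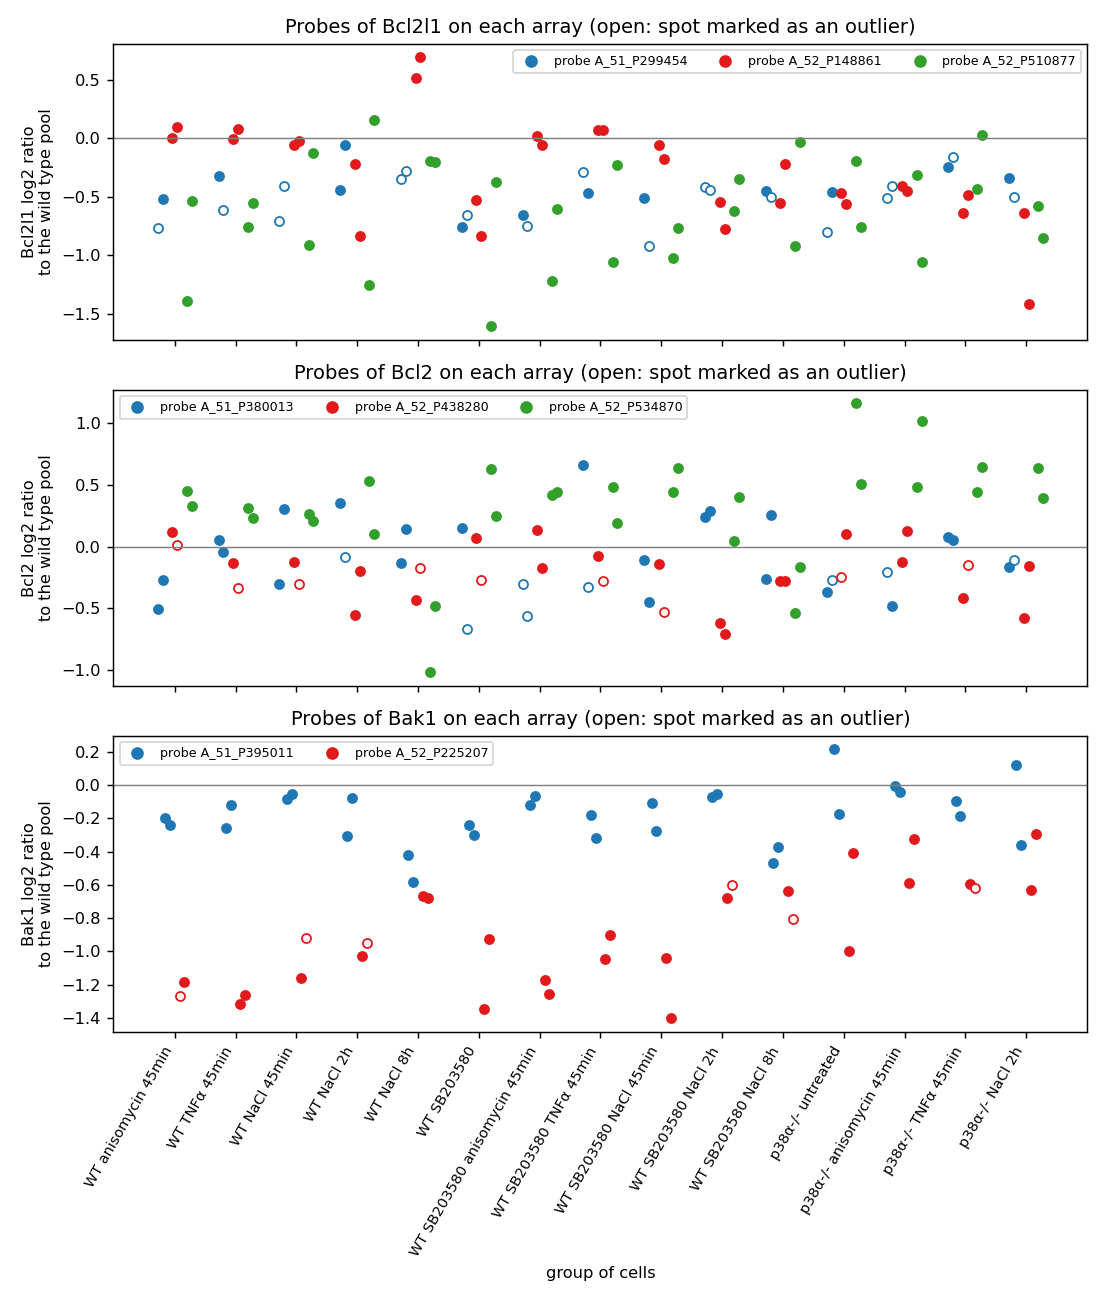
Log2 ratio to the WT pool of each probe of Bcl2l1, Bcl2 and Bak1 on each array of the 15 groups, one colour per probe and open points for spots marked as outliers. After 8 h of NaCl in WT cells the Bcl2l1 probe A_52_P148861 is at 0.51 and 0.69 and the Bcl2 probe A_52_P534870 at −1.02 and −0.48, while the Bak1 probe A_52_P225207 is below 0 on all 30 arrays.

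The pore formers were below the pool throughout. Bak1 (chromosome 17, 27019812 to 27028627) was called down in 8 groups of WT cells, from −0.45 with anisomycin to −0.74 with TNFα, the call with anisomycin being lost with scan date in the fit (−0.43, adjusted p = 0.054). With the outlier spots kept it was called in all 15 groups, the 4 groups of p38α-/- cells included (−0.37 to −0.24, adjusted p = 0.0018 to 0.0216). The value came mostly from A_52_P225207, which ran from −1.31 to −0.66 in WT stress arrays, from −1.40 to −0.60 with the inhibitor and from −0.997 to −0.30 in p38α-/- cells, whereas A_51_P395011 ran from −0.58 to 0.22 over all 30. Where the A_52_P225207 spot was left out, the array value was that of the other probe, as in WT cells with anisomycin (−0.20 and −0.71). Between groups Bak1 was not called. With the outlier spots kept, p38α-/- cells were higher than WT cells with anisomycin by 0.48 (adjusted p = 0.0167, with 1.08% of such tests called over all genes), and the 2 genotypes did not overlap there, at −0.30 and −0.18 against −0.73 and −0.71.

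Bax (chromosome 7, 45461695 to 45466903) was read by 1 probe with outlier spots on 14 arrays. On all 30 arrays, those included, it was below the pool (−0.86 to −0.15). It could be tested in 4 groups and was called in 3: 45 min of NaCl (−0.75 and −0.54, adjusted p = 0.0172), the inhibitor with anisomycin (−0.78 and −0.72, adjusted p = 0.00907) and the inhibitor with 2 h of NaCl (−0.49 and −0.47, adjusted p = 0.0322). With the outlier spots kept it was called down in all 15 groups (−0.75 to −0.33). A ratio of 1 sign on every array, whatever the treatment and genotype, cannot be told apart here from a dye bias of the probe or a high level in the pool, because no dye was swapped and no untreated WT culture was hybridised. With outlier spots kept, 6.27% of all tests of the difference of rises were called, and 0.805% over single probes. In that comparison the 8 Bak1 values were 0.34 to 0.86 and not called, and with the outlier spots kept they were 0.55 to 0.94 and all called (adjusted p = 0.00135 to 0.048), but they carry the same offset.

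Leaving out each of the 30 arrays in turn, 3 of the 42 calls of these genes against the pool or between groups stayed called every time: Pmaip1 in WT cells with TNFα and Mcl1 after 2 h of NaCl in WT and in p38α-/- cells. The rest were lost without at least 1 array, of their own group or of another. A group left with a single array borrowed its spread from the other groups.

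Of 46 other genes of the family and its pathway, 44 were on the array, and 66 of 498 pairs of a gene and a group were called against the pool (39 up, 27 down). This was 13.3%, against 14.7% over all genes, and their median ratio was −0.01 against 0.01. The other family members (18 genes, such as Bad, Bbc3 and Bmf) had 17 calls in 214 tests, 4 up and 13 down. The mitochondrial pathway (16 genes, cytochrome c, Apaf1, caspases and their inhibitors) had 41 in 184, 32 up and 9 down, or 22.3%. The death receptor genes (10, such as Fas, Fadd and Casp8) had 8 in 100.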

How the data were processed

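RNA from 30 cultures (2 for each of 15 groups) was hybridised by the authors to Agilent 44K mouse arrays, Cy5 for the sample and Cy3 for the pool. The deposited log10 ratio of each spot comes from Agilent Feature Extraction, version 8.1.1.1 per the file headers and 9.1 per the submitters' processing notes, which subtracts background and normalizes the dyes. The deposited intensity of each channel gave the signal, background and saturation of a probe. The deposited log2 values of the series matrix (normalized per array and centred near 0, by steps not given in the sources used here) served as an alternative.

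The log10 ratio was turned to log2, control spots and spots marked as outliers were left out, and probes of 1 gene name were averaged. limma 3.58.1 in R 4.3.3 fitted 1 mean per group to all 30 arrays (15 residual degrees of freedom), tested on simulated data first, with Benjamini-Hochberg adjustment over all genes measured on every array compared and a threshold of 0.05. With 2 arrays a group, the number of arrays limits the precision. All 8 genes were described. Of 46 pathway genes, those called with a mean of at least 1 on the log2 scale in either direction and alike on both arrays were to be named, and what this rule found is not reported here. Likeness was Pearson's r among genes with an SD of at least 0.5. Members, lists and tests were chosen with earlier results of these data known. Gene positions and promoters were read from RefSeq tables (GRCm38.p6).

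Replicate numbers paired arrays within a genotype: deviations from the group means correlated above 0.1 in 55 of 55 WT pairs of groups (median 0.458) and 6 of 6 p38α-/- pairs (0.246), but in 6 of 44 across genotypes. The blocked values are given where they changed a call. Shares over all genes are not given for the blocked fits, the fit with scan date or the series matrix. Calls gained there may be gained over all genes as well, which was not tested. The alternatives were normexp background correction with loess, outlier spots kept, the brightest probe, single probes, the series matrix, a bright-probe filter, replicate blocks, scan date and leaving out arrays.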

Additional observations from a re-analysis of the deposited data

Results flagged for a closer look

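Pmaip1 differed between p38α-/- and WT cells with anisomycin by −1.66 and with TNFα by −1.77, both by limma's test of the difference itself.

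In 4 further comparisons both arrays of 1 group were above the pool and both arrays of the other below it, or the reverse, and the difference did not pass the test. They come from 33 comparisons with the inhibitor and 19 between genotypes. How often such a split arises over all genes is not given here, so their number is not a result about these genes. Bid after 45 min of NaCl was above the pool with SB203580 and below it without, a difference of 0.25. Bcl2l1 after 8 h of NaCl was below the pool with the inhibitor and above it without, a difference of −0.59 as a gene. Bcl2l11 was above the pool in p38α-/- cells with anisomycin and below it in WT cells, differing by 0.15, and after 2 h of NaCl the signs were turned, with a difference of −0.42.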

How the results depend on the processing

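The calls rest on 2 arrays a group, on 1 reference in 1 dye and on which spots were kept, and these set the limits. The 34 calls against the pool, in 104 tests, became 61 of 120 with outlier spots kept and 62 of 120 in the series matrix. Over single probes with outlier spots kept they became 73 of 120, a pair counting if any of its probes was called. Where a mean of at least 1 was also asked, 7 were left. Over all genes the share called rose from 14.7 to 24.2% with outlier spots kept. The 2 calls between NaCl times, in 14 tests, became 1 of 7 with the brightest probe of each gene. Over single probes with outlier spots kept they became 4 of 16. The 0 calls between stresses at 45 min became 1 with normexp and loess. The 4 calls of stress within an arm, in 52 tests, became 2 of 31 with the brightest probe and 1 of 50 over single probes. Of 48 tests in the difference of rises 0 were called. The count became 3 of 23 with the brightest probe, 5 of 48 with normexp and loess and 7 of 48 with scan date. With outlier spots kept it was 17 of 64 (6.27% over all genes), and in the series matrix 16 of 64. Over single probes it was 1 of 46, and 17 of 64 with their outlier spots kept. With the replicate block over all arrays that count was 1, and with the block within each genotype 7. That last block added 6 calls against the pool, 2 within an arm and 1 between NaCl times as well, and changed no other call of these genes. The 66 calls of the pathway lists became 160 with outlier spots kept, 189 in the series matrix, 136 over single probes, 262 over single probes with outlier spots kept and 1 with a mean of at least 1. Leaving out arrays gave 3 to 35 calls against the pool, 0 to 0 for the inhibitor, 0 to 2 for the genotype, 0 to 5 within an arm, 0 to 8 in the difference of rises, 0 to 2 between NaCl times, 0 to 0 between stresses and 5 to 76 for the lists. The 3 and the 5 arose without the first array of every WT group, and without the second the counts were 6 and 11. The mean of Bcl2 after 8 h of NaCl turned to 0.0051 with its brightest probe, which was saturated on 9 arrays. For the other changes the cause was not tested. The inhibitor and genotype counts kept within 1.5 times under every setting that did not leave out arrays.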
